A study of Mus musculus with 9 samples.

Results

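The adhesion molecules described here are 9 genes that a leukocyte uses to leave the blood and hold on to tissue. They comprise Selplg and Cd44, which bind selectins and hyaluronan, the β2 integrin chains Itgal, Itgam, Itgax and Itgb2, the chains Itga4 and Itgb1 of the integrin VLA-4, and Icam1, a ligand of the β2 integrins. Members were all non-control probes whose gene name on the array was one of these symbols, which gave 19 probes for 9 of the 34797 gene names on the array. RNA came from Gr-1bright neutrophils that were sorted by flow cytometry to a purity above 98% and hybridized to 1-color Agilent mouse arrays (Cy3). The 4 groups were neutrophils from skin next to papillomas (papilloma skin, 2 arrays), skin next to carcinomas (tumor skin, 2 arrays), papillomas (3 arrays) and tumors (2 arrays). All groups, skin included, came from FVB/N mice that had received the mutagen DMBA when 6 weeks and again when 13 weeks old and the tumor promoter PMA repeatedly from week 1 to weeks 18 to 20, so no group was untreated. Each array held RNA pooled from several mice, and an array is the unit of replication throughout.

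As background, a neutrophil first rolls along the vessel wall on selectins, which bind PSGL-1, the product of Selplg, and CD44. Chemokine signals then switch the integrins from a bent to an extended shape, and the β2 integrins LFA-1 (Itgal with Itgb2) and Mac-1 (Itgam with Itgb2) grip ICAM-1 so that the cell arrests, crawls and crosses. Mac-1 also binds complement fragments and fibrinogen inside the tissue, Itgax pairs with Itgb2 to form CD11c/CD18, and the β1 integrins hold on to VCAM-1 and to matrix. In mice CD11c is best known from dendritic cells and α4 integrin from lymphocytes, monocytes and eosinophils.

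The values are log2 values from the table that the authors deposited, and a few columns of that table did not match their own scanner file best. Over all probes, 5 of 9 columns had their highest Spearman correlation with the scanner file of the same array. The papilloma skin 1 column correlated at 0.588 with its own file and at 0.924 with that of tumor 2, the tumor 1 column at 0.827 and 0.947, and papilloma 2 and papilloma 3 were each closest to the file of the other. Differences of the 19 probes that are called below in papilloma or in tumor are therefore also given from the 7 remaining columns, as is Cd44 A_55_P2064043. There papilloma skin and tumor have 1 column each, and that column is assumed to vary like the other groups. Values over all lesions, the markers, the gene lists and most uncalled probes are given from all 9 columns only. All on slide 1, the arrays tumor 1, papilloma skin 1 and tumor skin 1 had a compressed signal. Their spike-in dilution series had a slope of 0.678 to 0.894, against 1.04 to 1.06 on the other 6, and at least 90.7% of probes were well above background there, against 44.2% to 64.2%. With 2 or 3 arrays per group, precision is set by how few arrays there are. Of the 19 probes, 18 were well above background on all 9 arrays, the exception being A_66_P140103 of Itga4 on papilloma 1, none was flagged as an outlier spot, and all 19 reached the level minimum of 6 that the calls below use.

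The 10 neutrophil markers listed were well above background on all 9 arrays, and their summed level (log2 of the sum of their linear values) lay between 19.6 and 20.2. S100a8 and S100a9, the calcium-binding proteins that fill the neutrophil cytoplasm, had mean log2 levels of 18.1 and 18.6. By the thresholds given below, 4 genes of that list were called lower in papilloma than in papilloma skin and 5 in tumor than in tumor skin. Among them were the granule genes Camp, Ngp, Ltf and Mmp8 in both. Of all probes, 1% and 1.51% were called lower, and the median log2 difference of the list was -0.98 and -1.43. Markers of other cells also moved with lesion against skin, and several of these lists are given beside the adhesion genes that such cells can carry.

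The array measures each gene by probes of 60 bases, and some of these are shown 5′ to 3′ on the transcript strand. They are a called probe of Itga4, a called probe of Itgb1, the uncalled probe of Icam1 and a pair of Cd44 probes. Of A_55_P2064043 and A_55_P2166501, the Cd44 pair whose difference within arrays is given below, only A_55_P2166501 is shown. In the second Cd44 probe the capitals mark the stop codon of the reading frame that begins at its first base, at base 46, after which 12 bases follow.
Itga4 A_66_P140103: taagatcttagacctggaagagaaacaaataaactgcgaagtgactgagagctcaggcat
Itgb1 A_66_P113059: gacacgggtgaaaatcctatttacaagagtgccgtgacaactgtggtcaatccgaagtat
Icam1 A_52_P613241: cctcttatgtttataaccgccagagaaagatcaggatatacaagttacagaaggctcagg
Cd44 A_55_P2166486: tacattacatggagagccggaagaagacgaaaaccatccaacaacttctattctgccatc
Cd44 A_55_P2166501: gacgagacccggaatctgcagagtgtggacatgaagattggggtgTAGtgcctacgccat
Per the scanner files, which use mouse build mm9, the Itga4 probe maps to chr2:79153985-79155115 on the plus strand, an interval of 1131 bases for 60 bases of probe, and the Itgb1 probe to chr8:131250081-131255976, an interval of 5896 bases, so both cross an intron. The Icam1 probe lies at chr9:20832290-20832349. The Cd44 probes lie on the minus strand, A_55_P2166486 at chr2:102672645-102672704 and A_55_P2166501 at chr2:102654278-102654337. No annotation of this build was used here, so exon numbers are not given.

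In lesions the neutrophils had less Itga4 RNA and, in papillomas, more Itgax RNA than neutrophils of the skin around them, while no probe for the chains of Mac-1 and LFA-1 was called. The A_66_P140103 probe of Itga4 was 2.12-fold lower in papilloma and 2.38-fold lower in tumor. This is the dimmer Itga4 probe, and the brighter one was lower in both lesions but called in tumor only. Itgax was 3.64-fold higher in papilloma. Selplg was 2.95-fold lower in tumor by its brighter probe, and Itgb1 was 2.27-fold higher there by A_66_P113059. As usual in bulk samples, fewer cells that hold an RNA and less RNA per cell cannot be told apart.

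Called means, here and below, an adjusted p (limma with Benjamini-Hochberg adjustment over 55681 probes) no larger than 0.05, a log2 difference of 1 or more in size and a mean over the 9 arrays that reaches 6. Of the 19 probes, 2 were called in papilloma versus papilloma skin (1 higher, 1 lower), where 3.18% of all probes were called (2.18% higher and 1% lower). In tumor versus tumor skin, 4 were called (1 higher, 3 lower), where 4.21% of all probes were called (2.71% higher and 1.51% lower). All lesions against all skin gave 4 calls (1 higher, 3 lower), beside 3.62% of all probes (2.29% higher and 1.33% lower). These shares include probes below the level minimum, which could not be called, whereas all 19 reached it. The median log2 difference of the 19 probes was -0.41 in papilloma, -0.63 in tumor and -0.48 over both, against -0.01, -0.02 and -0.02 over all probes. Every array of the lesion was below every array of the skin for 5 probes in papilloma and 12 in tumor, where 17.8% and 26.4% of all probes were, and above for 3 and 4, where 19.8% and 25.7% were. All 5 lesion arrays were below all 4 skin arrays for 5 probes and above them for 2, beside 4.65% and 7.49% of all probes. The plot of lesion minus skin differences by probe shows the calls beside the values that missed them.

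**Figure D1:**
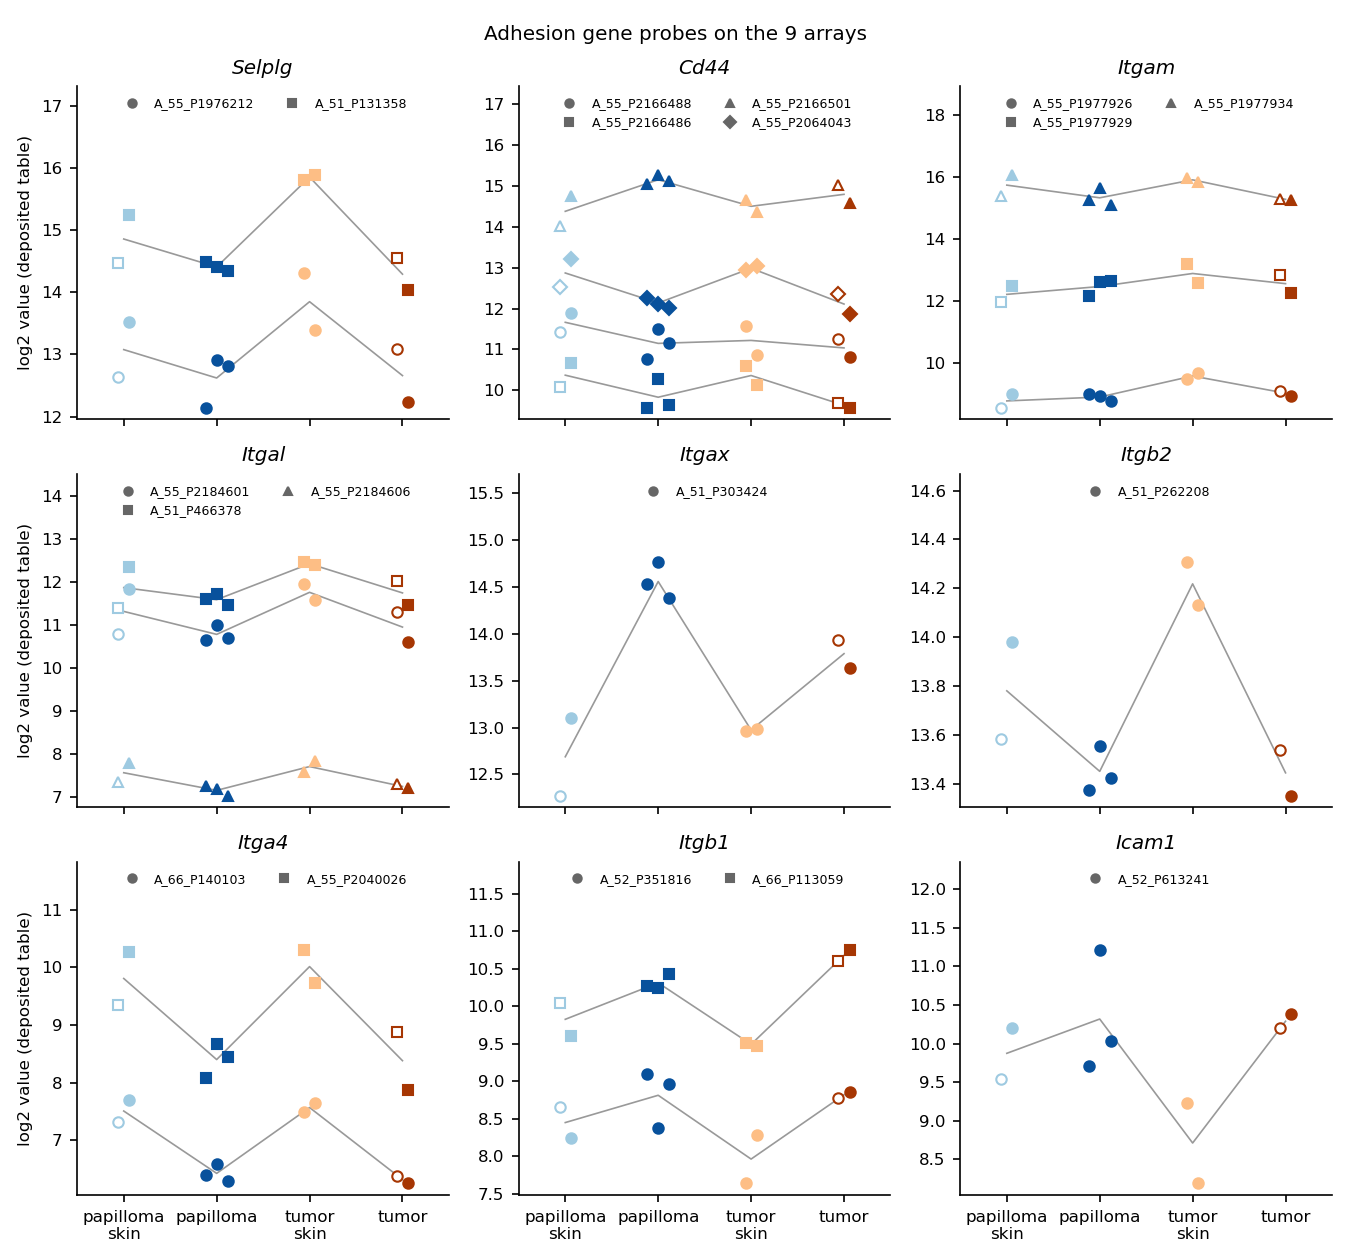
Log2 values of the deposited table (y axis) in each of the 4 groups (x axis) for the 19 probes of the 9 genes, one point per array, with the marker shape giving the probe and a gray line joining the group means. Open points are the papilloma skin 1 and tumor 1 columns. Itga4 is lower in both lesions than in both kinds of skin, and Itgax is higher, with papilloma highest at 14.4 to 14.8.

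Selplg encodes PSGL-1, the main selectin ligand of neutrophils. Its brighter probe, A_51_P131358, read 14.47 and 15.24 in papilloma skin, 15.81 and 15.89 in tumor skin, 14.48, 14.40 and 14.33 in papilloma and 14.55 and 14.03 in tumor. Both tumor skin arrays stood above all the others, and tumor and papilloma overlapped. On mm9 this probe was mapped over 28 of its 60 bases, against 60 of 60 for the dimmer probe below. The log2 difference was -1.56 ± 0.27 (SE) in tumor versus tumor skin (adjusted p = 0.0118) and -0.45 ± 0.24 in papilloma versus papilloma skin (adjusted p = 0.346). The test of the difference between these effects gave -1.11 (95% CI -1.94 to -0.29, adjusted p = 0.24). Tumor skin itself was 1.00 above papilloma skin (adjusted p = 0.101). Without the papilloma skin 1 and tumor 1 columns the tumor difference was -1.82 (adjusted p = 0.0169) and that of papilloma -0.84 (adjusted p = 0.0616). Over all lesions and skin the probe was called at -1.01, and it fell short of the fold minimum when papilloma skin 2, tumor skin 2, papilloma 3 or tumor 2 was left out (-0.99 to -0.81). The dimmer probe, A_55_P1976212, lies 1.43 kb upstream and gave -1.19 ± 0.45 in tumor (adjusted p = 0.134) and -0.46 ± 0.41 in papilloma (adjusted p = 0.591), with the 5 lesion arrays at 12.1 to 13.1 and the 4 skin arrays at 12.6 to 14.3. The call in tumor was lost when tumor 2 was left out (-1.30, adjusted p = 0.0895) and with slide as a term (-1.60, adjusted p = 0.115).

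Cd44 encodes the hyaluronan receptor, which is also a selectin ligand, and its 4 probes did not move together. On mm9 they run, from 5′ to 3′, A_55_P2166488, A_55_P2166486 at 5.33 kb, A_55_P2166501 at 23.7 kb and A_55_P2064043 at 26.6 kb. The probe over the stop codon, A_55_P2166501, read 14.01 and 14.75 in papilloma skin, 14.65 and 14.36 in tumor skin, 15.05, 15.28 and 15.14 in papilloma and 15.01 and 14.58 in tumor. The most 3′ probe, A_55_P2064043, read 12.52 and 13.22 in papilloma skin, 12.94 and 13.03 in tumor skin, 12.26, 12.12 and 12.03 in papilloma and 12.35 and 11.87 in tumor. So in papilloma the first of these was above all skin arrays and the second was below all of them. Over all lesions and skin the log2 difference was 0.53 ± 0.18 (adjusted p = 0.0834) for the first and -0.81 ± 0.17 (adjusted p = 0.017, below the fold minimum) for the second, while A_55_P2166486 gave -0.63 (adjusted p = 0.073) and A_55_P2166488 gave -0.35 (adjusted p = 0.321). Within an array, A_55_P2064043 minus A_55_P2166501 was -2.88 ± 0.23 (SD, n = 5) in lesions and -1.51 ± 0.16 (SD, n = 4) in skin, which differed by an exact two-sided permutation test (p = 0.00794, the smallest that 126 splits allow, and 0.0397 adjusted over 15 probe pairs of the 9 genes). The ranges were -3.16 to -2.66 and -1.71 to -1.32. From the scanner signals after quantile normalization the same quantity was -2.85 ± 0.32 (SD, n = 5) and -1.54 ± 0.21 (SD, n = 4; exact p = 0.00794, adjusted 0.119). In the deposited table A_55_P2166501 also differed in this test from A_55_P2166486 and A_55_P2166488 (exact p = 0.00794 and adjusted 0.0397 for each). In the scanner signals these pairs gave an exact p of 0.0794 and 0.5. Which transcript forms lie behind this was not measured, and A_55_P2064043 and A_55_P2166501 list the same 4 RefSeq transcripts. Without papilloma skin 1 and tumor 1, A_55_P2064043 passed the fold minimum as well, at -1.09 in papilloma (adjusted p = 0.0427) and -1.12 in tumor (adjusted p = 0.0373).

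**Figure D2:**
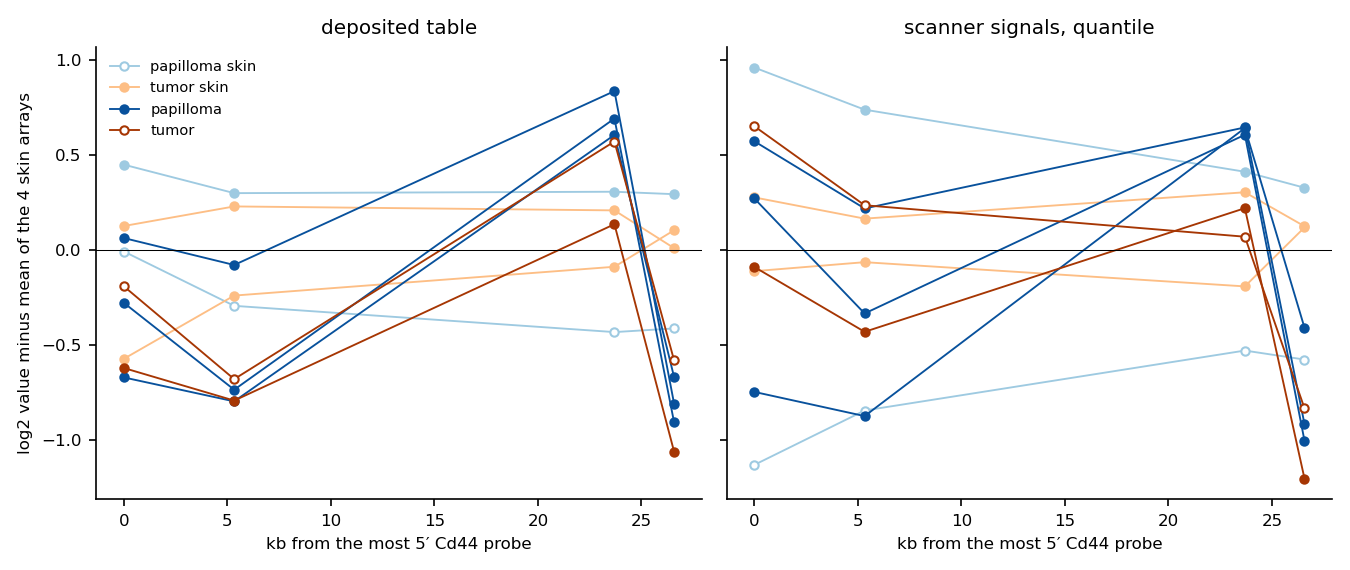
Log2 value of each array minus the mean of the 4 skin arrays (y axis) at the 4 Cd44 probes, placed by their distance in kb from the most 5′ probe (x axis), in the deposited table (left) and in the quantile normalized scanner signals (right). Each line is 1 array and open points are papilloma skin 1 and tumor 1. All 5 lesion arrays fall from the probe at 23.7 kb to the probe at 26.6 kb in both panels.

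Itgax encodes the CD11c chain and has 1 probe, A_51_P303424, at chr7:135294052-135294111 of mm9. It read 12.28 and 13.10 in papilloma skin, 12.97 and 12.98 in tumor skin, 14.53, 14.76 and 14.38 in papilloma and 13.93 and 13.64 in tumor. All 5 lesion arrays were above all 4 skin arrays, and all 3 papilloma arrays were above both tumor arrays. The log2 difference was 1.87 ± 0.24 in papilloma versus papilloma skin (95% CI 1.31 to 2.42, adjusted p = 0.00434) and 0.81 ± 0.27 in tumor versus tumor skin (0.20 to 1.43, adjusted p = 0.0941). Neither the difference between these effects (-1.05, adjusted p = 0.256) nor tumor versus papilloma (-0.77, adjusted p = 0.223) passed the test. Over all lesions and skin the value was 1.34 ± 0.18 (adjusted p = 0.00236). Within slide 1 papilloma was 2.25 above papilloma skin and within slide 2 it was 1.66 above, while tumor was 0.97 above tumor skin within slide 1. With 7 columns the papilloma difference was 1.45 (adjusted p = 0.0327) and the tumor difference 0.67 (adjusted p = 0.122). The 10 markers of dendritic and Langerhans cells had a summed level of 14.4 to 15.2 in papilloma skin, 13.6 to 14.9 in papilloma, 13.8 to 14.6 in tumor skin and 12.3 to 12.4 in tumor, with 0 of 10 called in papilloma and 1 called lower in tumor. The 10 markers of monocytes and macrophages, which can also carry CD11c, had a summed level of 17.8 to 18.0 in papilloma skin and 18.1 to 18.2 in papilloma, and of 17.7 to 17.8 in tumor skin and 17.8 to 18.1 in tumor, with 0 called higher and 1 called lower in each lesion. The part of these cells in the Itgax values was not tested.

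Itgam, the CD11b chain of Mac-1 and the commonest surface marker of myeloid cells, had 3 probes and no call. The brightest, A_55_P1977934, read 15.40 and 16.08 in papilloma skin, 15.98 and 15.85 in tumor skin, 15.25, 15.65 and 15.10 in papilloma and 15.30 and 15.26 in tumor. Its log2 difference was -0.41 ± 0.23 in papilloma (adjusted p = 0.367) and -0.63 ± 0.25 in tumor (adjusted p = 0.154). A_55_P1977929 gave 0.25 (95% CI -0.38 to 0.89) and -0.33 (-1.02 to 0.37), and A_55_P1977926, 48.1 kb upstream of it, gave 0.13 (-0.27 to 0.52) and -0.55 (-0.99 to -0.12). The interval of A_55_P1977929 held 0 in both lesions. In tumor skin versus papilloma skin A_55_P1977926 was 0.81 ± 0.19 higher (adjusted p = 0.0809), the smallest adjusted p of any of the 19 probes in that comparison.

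Itgb2 encodes the shared β2 chain (CD18). Its probe read 13.58 and 13.98 in papilloma skin, 14.31 and 14.13 in tumor skin, 13.37, 13.56 and 13.42 in papilloma and 13.54 and 13.35 in tumor. All lesion arrays were below all skin arrays, though the highest lesion and the lowest skin array were 13.56 and 13.58. The log2 difference was -0.77 ± 0.18 in tumor (adjusted p = 0.0326), -0.33 ± 0.16 in papilloma (adjusted p = 0.296) and -0.55 ± 0.12 over both (adjusted p = 0.0183). From the scanner signals scaled to the 75th percentile, the papilloma values of Itgb2, Selplg, Itgam A_55_P1977934 and 2 Itgal probes were above 0. The median of all probes in papilloma moved the other way, by -0.37 to -0.41. The adjusted p alone, with no fold minimum, was at most 0.05 for 9.74% of all probes in tumor and 14.8% over both.

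Itgal, the CD11a chain of LFA-1, had 3 probes and no call, with values in the deposited table below skin in both lesions. The brightest, A_51_P466378, read 11.39 and 12.34 in papilloma skin, 12.45 and 12.39 in tumor skin, 11.59, 11.71 and 11.45 in papilloma and 12.03 and 11.46 in tumor. The log2 differences of the 3 probes ran from -0.53 to -0.28 in papilloma (adjusted p from 0.218 to 0.635) and from -0.81 to -0.46 in tumor (adjusted p from 0.156 to 0.201). The dimmest, A_55_P2184606, lists no RefSeq transcript, and it gave -0.44 ± 0.13 over all lesions and skin (adjusted p = 0.0532). Of the chain that LFA-1 and Mac-1 share and their α chains, 7 probes were measured and 0 were called in the 6 contrasts. In these contrasts 0.0269% to 4.21% of all probes were called, so 0 of 7 does not set these chains apart. Without slide in the fit, Itgb2 passed the adjusted p in tumor and over both, and missed only the fold minimum. With slide as a term it gave -0.86 in tumor (adjusted p = 0.154) and -0.58 over both (adjusted p = 0.0666), so neither passed.

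**Figure D3:**
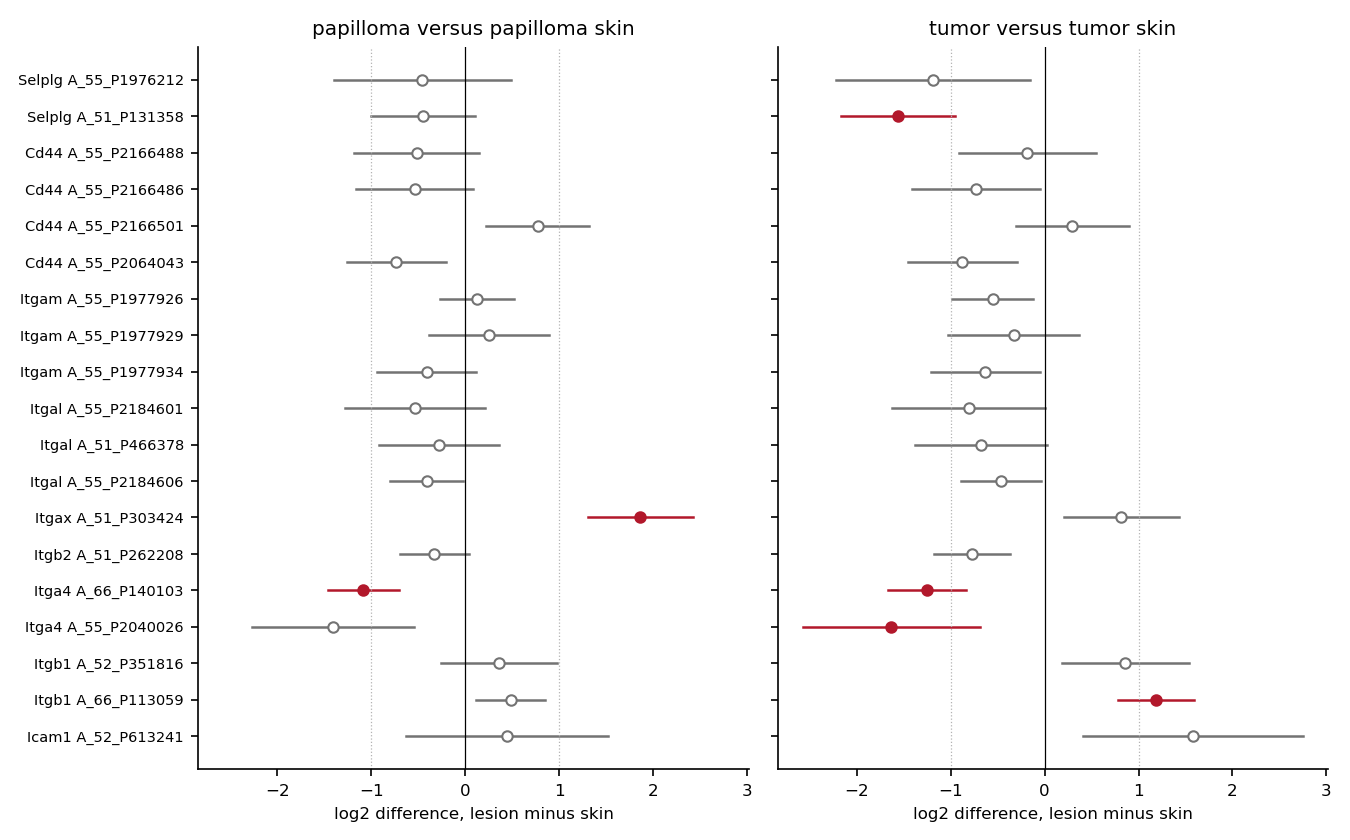
Log2 difference between lesion and surrounding skin (x axis) with its 95% CI from limma for each of the 19 probes (y axis), for papilloma (left) and tumor (right). Filled red points are called and dotted lines mark the fold minimum. The Itga4 probe A_66_P140103 is called in both panels, at -1.08 and -1.25.

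Itga4, the α4 chain of VLA-4 and of the gut homing integrin α4β7, was the gene called in both lesions. A_66_P140103 read 7.31 and 7.71 in papilloma skin, 7.50 and 7.64 in tumor skin, 6.40, 6.58 and 6.29 in papilloma and 6.38 and 6.25 in tumor. The brighter A_55_P2040026, 19.2 kb downstream, read 9.36 and 10.26 in papilloma skin, 10.30 and 9.73 in tumor skin, 8.08, 8.68 and 8.44 in papilloma and 8.88 and 7.88 in tumor. For both probes every lesion array was below every skin array. The lesion values of A_66_P140103 lay close to the medians of the 9 columns over all probes, 6.08 to 6.12. The log2 difference of A_66_P140103 was -1.08 ± 0.16 in papilloma (adjusted p = 0.00788) and -1.25 ± 0.18 in tumor (adjusted p = 0.00671). That of A_55_P2040026 was -1.41 ± 0.37 in papilloma (adjusted p = 0.0678, not called) and -1.63 ± 0.41 in tumor (adjusted p = 0.0438). Over all lesions and skin both were called, at -1.17 (adjusted p = 0.000751) and -1.52 (adjusted p = 0.00902). With 7 columns A_66_P140103 gave -1.28 in papilloma (adjusted p = 0.0367) and -1.32 in tumor (adjusted p = 0.033), and A_55_P2040026 gave -1.86 (adjusted p = 0.0549) and -2.14 (adjusted p = 0.0376). Within slide 1 the log2 differences of A_66_P140103 and A_55_P2040026 were -0.91 and -1.27 in papilloma and -1.12 and -1.42 in tumor, and within slide 2 they were -1.12 and -1.58 in papilloma.

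Leaving out papilloma skin 2 took the papilloma call of A_66_P140103 (-0.88, adjusted p = 0.0548) and leaving out tumor 2 its tumor call (-1.19, adjusted p = 0.0606). When the fit also held slide, A_66_P140103 kept its direction but was called in neither lesion alone (-1.05, adjusted p = 0.06, and -1.34, adjusted p = 0.0809), and it was called over all lesions and skin (-1.20, adjusted p = 0.00866). The tumor call of A_55_P2040026 was lost in that fit (adjusted p = 0.184) and when any 1 of 6 arrays was left out, with a value as near to 0 as -1.13 without tumor 2. Markers of cells that can carry α4 integrin differed in direction. The 7 eosinophil markers had a summed level of 13.7 to 14.1 in papilloma skin against 11.8 to 12.2 in papilloma, and of 13.1 to 13.2 in tumor skin against 12.9 to 13.1 in tumor, with 4 of 7 called lower in each lesion and 1 called higher in tumor. Epx, the eosinophil peroxidase, was well above background on 3 of 9 arrays and was not called in either (-0.54, adjusted p = 0.102, and 0.14, adjusted p = 0.658). On the 3 arrays of compressed signal at least 90.7% of all probes were well above background. Of the 7 eosinophil markers, 1 was so on none of the other 6 arrays. The 6 markers of B and plasma cells had a summed level of 13.3 to 14.6 and 13.4 to 15.3 in the 2 kinds of skin against 8.72 to 9.65 and 8.88 to 8.94 in papilloma and tumor, with 1 and 2 of 6 called lower. That sum follows the brightest genes. Only 3 of the 6 reached a mean level of 6, and the median log2 difference of the 6 was -0.43 in papilloma and -1.32 in tumor. The 10 T cell markers had a summed level of 13.4 to 13.5 in papilloma skin against 12.9 to 13.3 in papilloma, and of 13.3 to 13.6 in tumor skin against 12.9 in tumor, with 0 called in papilloma and 1 called lower in tumor. The summed level of the 10 monocyte and macrophage markers, given with Itgax, was not lower in either lesion. The part of these cells in the Itga4 result was not tested.

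Itgb1, the β1 chain that pairs with α4 and with the collagen, laminin and fibronectin receptors, went the other way from Itga4. A_66_P113059 read 10.04 and 9.61 in papilloma skin, 9.51 and 9.47 in tumor skin, 10.27, 10.24 and 10.43 in papilloma and 10.61 and 10.75 in tumor. All lesion arrays were above all skin arrays. The log2 difference was 1.19 ± 0.18 in tumor versus tumor skin (adjusted p = 0.00734), 0.49 ± 0.16 in papilloma versus papilloma skin (adjusted p = 0.128) and 0.84 ± 0.12 over both (adjusted p = 0.00294, below the fold minimum). The difference between the stages was 0.70 (95% CI 0.16 to 1.24, adjusted p = 0.251). With 7 columns the tumor difference was 1.26 (adjusted p = 0.0285), without tumor 2 it was 1.12 (adjusted p = 0.0646), and with slide as a term it was 1.27 (adjusted p = 0.0862), the last 2 not called. The other probe, A_52_P351816, 3.73 kb upstream, gave 0.86 ± 0.29 in tumor (adjusted p = 0.106) and 0.36 ± 0.27 in papilloma (adjusted p = 0.504). Itgb1 is also abundant in fibroblasts, endothelium and keratinocytes. Of 12 keratinocyte markers 4 were called higher in tumor and 3 in papilloma, with a summed level of 14.7 to 16.4 in tumor against 13.4 to 14.4 in tumor skin and of 14.5 to 15.7 in papilloma against 13.6 to 14.1 in papilloma skin. Of 9 endothelial markers 6 were called higher in papilloma and 2 in tumor (summed level 13.3 to 14.0 in papilloma against 12.9 to 13.2 in papilloma skin, and 12.6 to 13.0 in tumor against 13.2 to 14.0 in tumor skin). The 8 fibroblast markers had a summed level of 15.1 to 15.6 in papilloma against 13.6 to 14.7 in papilloma skin, and of 12.4 to 13.9 in tumor against 13.0 to 13.1 in tumor skin, with 1 called higher in papilloma and 1 higher and 1 lower in tumor. The part of these cells in the Itgb1 values was not tested.

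Icam1, an adhesion ligand that inflammatory signals raise in many cells, had no call and the largest SD within a group among the 19 probes (0.79 in papilloma, n = 3). Its probe read 9.55 and 10.20 in papilloma skin, 9.23 and 8.19 in tumor skin, 9.71, 11.21 and 10.04 in papilloma and 10.20 and 10.38 in tumor. Both tumor arrays were above both tumor skin arrays, while papilloma overlapped its skin. The log2 difference was 1.58 ± 0.51 in tumor (95% CI 0.40 to 2.75, adjusted p = 0.0914), 0.44 ± 0.47 in papilloma (-0.63 to 1.52, adjusted p = 0.653) and 1.01 ± 0.35 over both (adjusted p = 0.091). Leaving out papilloma 2 narrowed the pooled spread and the tumor difference then passed all thresholds (adjusted p = 0.046), while the papilloma difference became -0.00203. In the quantile normalized scanner signals Icam1 was 4.99 on papilloma skin 1, against 8.35 to 11.5 on the other 8 arrays, a gap that the deposited table does not show.

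Between the lesions, 0 of 19 probes were called in tumor versus papilloma (0.447% of all probes), with 1 at an unadjusted p under 0.05 in limma, the Itgax probe. In tumor skin versus papilloma skin 0 of 19 were called as well (0.26% of all probes), with 3 at an unadjusted p under 0.05, and in the difference of the lesion effects 0 of 19 (0.0269% of all probes), with 4. The smallest adjusted p was 0.223, 0.0809 and 0.24 in these 3 contrasts. From the scanner signals with quantile normalization and ComBat, 0 probes of any gene were called in the same 3 contrasts.

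By group means, tumor skin was the highest of the 4 groups for both Selplg probes, all 3 Itgam and all 3 Itgal probes, Itgb2 and both Itga4 probes, and was the lowest for both Itgb1 probes and for Icam1. Papilloma was highest for Itgax, Icam1 and the Cd44 probe A_55_P2166501. Most steps between neighbors in these orders were small. For Itga4 A_66_P140103 the skin groups differed by 0.06 and the lesions by 0.11, against a gap of 1.08 between them and a largest SD of 0.28 (n = 2). Itgb2 in the lesions differed by 0.01. For Itgax the steps from papilloma to tumor to tumor skin were 0.77 and 0.81, with a largest SD of 0.58 (n = 2), and the skin groups differed by 0.28.

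Across the 9 columns, the brightest probes fell into members that rose and fell together. Selplg, Itgb2, Itgal, Itgam and Itga4 correlated with each other at Pearson's r of 0.81 to 0.97, the highest being Selplg with Itgb2. Itgb1 ran opposite to these at -0.92 to -0.76, and Cd44, by its brightest probe, followed Itgax (r = 0.93). These are descriptions over 9 arrays that share groups, slides and the authors' processing. Among 1842 named genes that were called in at least 1 contrast, those most like Itgax were Plk3, a stress kinase (r = 0.99), Bcl2l11, the death promoting BIM (0.99), and Ccrl2, an atypical chemokine receptor (0.98). Those most like Icam1 were Isg15 and Cxcl2 (0.95 and 0.94), an interferon-induced modifier and a neutrophil chemokine, and Cdh16 (0.93). Those most like Itga4 were Dck, a nucleoside kinase (0.99), Gpr65, a proton-sensing receptor (0.99), and Glipr1 (0.99), and for Selplg they were AB124611, Cd37, a leukocyte tetraspanin, and Ube2l6 (0.986 to 0.995).

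The rest of the adhesion machinery was described by 6 lists, with each gene counted by its brightest probe and the calls read against the 3.18% and 4.21% above. Of 21 other integrin subunits, 3 were called higher and 2 lower in papilloma, and 1 higher and 3 lower in tumor. Itgb7, the β7 chain that pairs with α4, was lower in both (-2.21, adjusted p = 0.0116, and -2.15, adjusted p = 0.0167), as was Itgb2l, a β2-like chain of neutrophils (-1.40 and -1.98, adjusted p = 0.0202 and 0.00733). Itga7, a laminin receptor of muscle, was higher in both (3.04 and 1.74, adjusted p = 0.000121 and 0.00169). Itgb3 was lower in tumor (-1.64, adjusted p = 0.00737). Smooth muscle markers, 5 of 6 called higher in papilloma and 0 of 6 in tumor, had a summed level of 13.3 to 13.5 in papilloma against 11.7 to 12.0 in papilloma skin, and of 11.4 to 11.5 in tumor against 11.9 to 12.0 in tumor skin. Their part in the Itga7 values was not tested.

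Of 22 genes of integrin activation, which carry the chemokine signal to the integrin tail, 0 were called higher in either lesion, 1 lower in papilloma and 4 lower in tumor, with medians of -0.45 and -0.56. Plcg2, a phospholipase, was lower in both (-1.16 and -1.41, adjusted p = 0.0105 and 0.00728). Rasgrp2, which loads the GTPase Rap1 (-1.80, adjusted p = 0.0163), Rassf5, the Rap1 partner RAPL (-1.51, adjusted p = 0.0232), and the adaptor Fyb (-1.01, adjusted p = 0.0394) were lower in tumor. Tln1, the talin that opens integrins, passed the adjusted p but not the fold minimum (-0.79 and -0.66, adjusted p = 0.0162 and 0.0362).

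Of 14 selectins and enzymes that build selectin ligands, B4galt1, a galactosyltransferase, was higher in both (1.13 and 1.17, adjusted p = 0.0251 and 0.0261) and Fut7, the fucosyltransferase that makes the selectin-binding sugar of PSGL-1, was lower in papilloma (-1.17, adjusted p = 0.018) and gave -0.53 in tumor (adjusted p = 0.193). The other 12 were not called. Of 15 measured counter-receptors, which sit mainly on endothelium, 2 were called higher in each lesion and 0 lower. Esam was higher in both (2.21 and 1.52, adjusted p = 0.01 and 0.0471), Pecam1 in papilloma (1.45, adjusted p = 0.00633) and Vcam1, the ligand of VLA-4, in tumor (1.55, adjusted p = 0.00404), beside the endothelial markers given above, whose part was not tested.

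Of 14 partners of CD44 and hyaluronan enzymes, 3 were called higher in both lesions. Spp1, osteopontin, which binds CD44 and integrins, was 2.87 and 2.69 higher by log2 (adjusted p = 0.000856 and 0.00235), and the hyaluronidases Hyal1 (2.43 and 2.50, adjusted p = 0.00184 and 0.00317) and Hyal2 (1.89 and 2.35, adjusted p = 0.00585 and 0.00403) were higher as well. Cd74 was lower in tumor (-2.47, adjusted p = 0.022). It is also among the dendritic and Langerhans cell markers given with Itgax, and the part of these cells was not tested. Of 6 sheddases, which clip adhesion molecules off the surface, 0 were called, and Adam17 gave 0.27 and 0.93 (adjusted p = 0.63 and 0.0792).

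**Figure D4:**
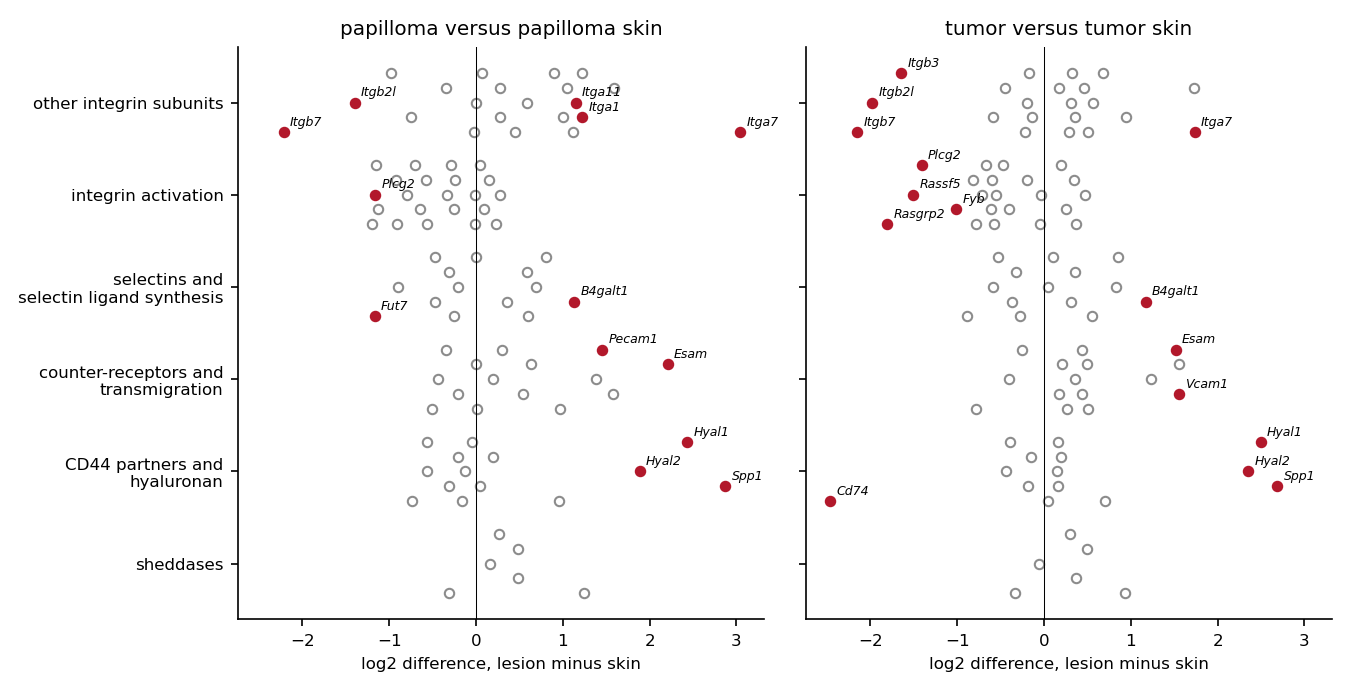
Log2 difference between lesion and skin (x axis) for the genes of 6 adhesion lists (y axis, offset within a list only to separate points), for papilloma (left) and tumor (right), each gene by its brightest probe. Filled red points with names are called. No gene of integrin activation is called to the right of 0, and Spp1, Hyal1 and Hyal2 are called at 1.89 or more in both panels.

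The same 19 probes were also fitted from the scanner signals after quantile normalization and ComBat for slide. Called there were, over all lesions and skin, both Itga4 probes (-1.83 and -1.88, adjusted p = 0.00509 and 0.0113), Itgax (1.37, adjusted p = 0.0204), Selplg A_51_P131358 (-1.15, adjusted p = 0.0223) and Itgb1 A_66_P113059 (1.32, adjusted p = 0.0191), beside 3.18% of all 55155 probes. In papilloma versus papilloma skin the calls were Itgax (1.96), Itga4 A_66_P140103 (-1.44) and both Itgb1 probes (1.69 and 1.37), beside 7.19% of all probes. In tumor versus tumor skin they were the 2 Itga4 probes (-2.21 and -2.84), beside 0.221%. With no slide handling, or with slide as a term in the fit, 0 of 19 probes and 0 probes of any gene were called from the scanner signals in these contrasts. Limma after ComBat treats the slide correction as if it cost no degrees of freedom, so these p-values may be too small, and if the deposited table was corrected in that way the same holds for it. With slide as a term on the deposited table, 1 probe was called in papilloma (Itgax, adjusted p = 0.0305), 0 in tumor and 4 over all lesions and skin, beside 1.76%, 0.375% and 3.21% of all probes.

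**Figure D5:**
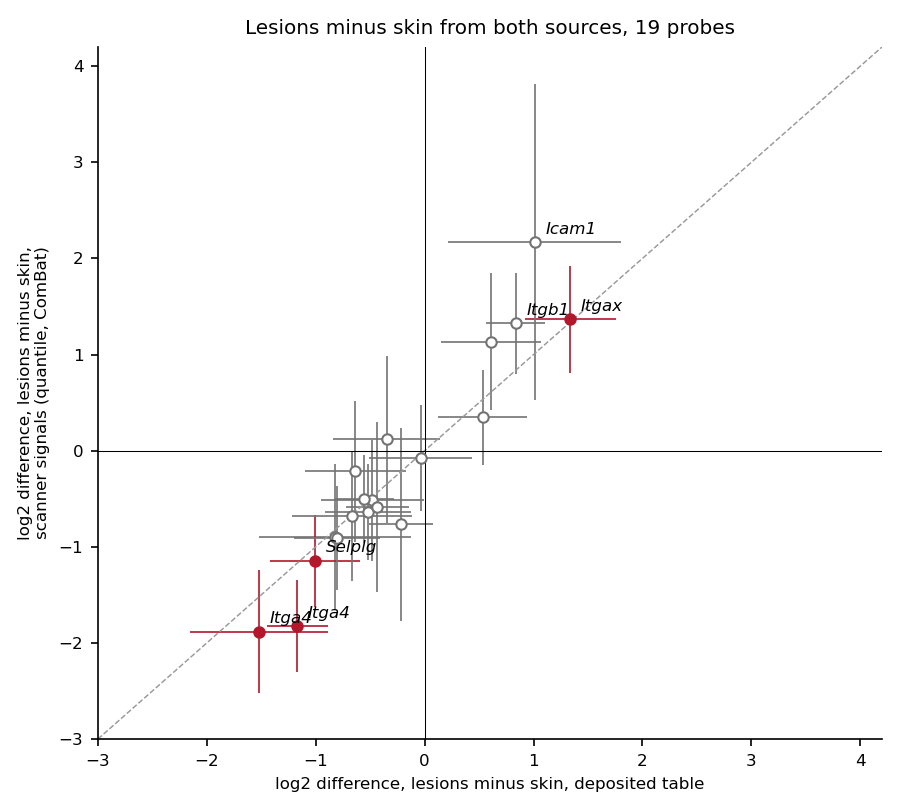
Log2 difference between all lesions and all skin for the 19 probes in the deposited table (x axis) and from the scanner signals after quantile normalization and ComBat (y axis), with 95% CIs and a dashed line of equal values. Red points are called in both. Both Itga4 probes, Selplg A_51_P131358 and Itgax are called in both, and Icam1 at 1.01 and 2.17 is called in neither.

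Itgam and Itgax are neighbors on chromosome 7 and are read in the same direction, and their values differed. RefSeq promoter sequences (GRCm38.p6) matched 6 of the 9 genes, and those of Itgam, Itgax and Icam1 are shown as the 250 bases before the start, 5′ to 3′ on the plus strand. They were searched on both strands for GAGGAA, a core that the myeloid factor PU.1 can bind, and for GGAAATTCC, a form of the NF-κB site, and the capitals mark these letters or their reverse complement.
Itgam chr7:128062390-128062639: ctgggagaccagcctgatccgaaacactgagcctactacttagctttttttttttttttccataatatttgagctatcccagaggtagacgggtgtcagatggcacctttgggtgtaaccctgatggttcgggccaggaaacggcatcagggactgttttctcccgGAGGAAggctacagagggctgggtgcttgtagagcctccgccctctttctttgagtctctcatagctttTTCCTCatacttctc
Itgax chr7:128129300-128129549: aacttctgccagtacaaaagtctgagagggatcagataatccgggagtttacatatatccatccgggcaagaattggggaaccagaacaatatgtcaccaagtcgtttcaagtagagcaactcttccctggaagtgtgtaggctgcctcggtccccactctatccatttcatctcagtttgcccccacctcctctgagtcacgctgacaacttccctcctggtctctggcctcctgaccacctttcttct
Icam1 chr9:21015690-21015939: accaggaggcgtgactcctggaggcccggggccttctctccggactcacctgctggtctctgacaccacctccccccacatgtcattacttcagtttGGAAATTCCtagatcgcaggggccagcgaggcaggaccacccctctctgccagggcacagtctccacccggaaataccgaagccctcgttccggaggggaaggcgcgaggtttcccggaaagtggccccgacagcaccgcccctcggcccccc
GAGGAA or its reverse complement was in 3 of the 6 windows (Cd44, Itgam and Itgb1) and in 23.3% of all 32851 promoter windows of this length. GGAAATTCC was in 1 of the 6, that of Icam1, and in 0.286% of all windows. The letters are not in the Itgax window, which says nothing about the factors themselves.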

How the data were processed

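Neutrophil RNA of 4 groups was measured on 9 Agilent 1-color arrays, grouped by the sample labels. For each array the authors deposited Feature Extraction 10.7.3.1 output with intensity per spot, and, for the whole series, log2 values by probe. Per the study's methods, limma quantile normalization was followed by ComBat for chip, and whether the deposited values carry the latter is not stated. These log2 values (55681 probes) were fitted with limma 3.58.1 in R 4.3.3, with 5 residual degrees of freedom over the 4 groups, after the fit was tested on simulated data. Processed signals gave 55155 probes with spots free of outlier flags, for quantile normalization, ComBat written for this purpose and limma. Probe positions are mm9. The R package data.table (version 1.17.8), Python 3.11.15, pandas 2.3.3 and matplotlib 3.10.9 were used.

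Members, gene lists and alternatives were chosen with earlier results of these data known. Named are all probes of the 9 genes and, per list, up to 4 genes that were called in most of both lesion contrasts and then changed most, Tln1 and Epx being added after their values were seen. The paper describes the arrays of a group as biological replicates, made from pools of mice in separate experiments. The sample labels do not link an array to its mice or experiment, and p-values measure the spread between arrays.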

Additional observations from a re-analysis of the deposited data

How the results depend on the processing

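Every difference called in the deposited table kept its direction in all 260 values recomputed for it, and it stayed called in 21 of 70 from the scanner signals, 79 of 100 from other settings of the table and 76 of 90 with 1 array left out. The 260 include settings that could not change a direction. Those that altered only a minimum, the probes kept or the moderation of the spread left the log2 difference unchanged. So did leaving out an array outside the contrast, and a lifted minimum could not lose a call. Of 19 probes, 2, 4 and 4 were called in papilloma, in tumor and over all lesions. The counts became 0, 0 and 0 from the scanner signals with no slide handling (quantile or 75th percentile), with slide as a term and on the 6 arrays of full spike-in slope. They were 4 and 2 in papilloma and tumor after quantile normalization and ComBat, and 5 and 0 after the 75th percentile and ComBat, where 11.5% and 0.0671% of all probes were called. On the table, slide as a term gave 1 and 0, the adjusted p alone gave 7 over all lesions, and slide as a term on 7 columns gave 0, 0 and 1. The last 2 settings were chosen after seeing the data. Leaving out 1 array gave 1 to 2, 0 to 4 and 3 to 4, with the lowest papilloma count without papilloma skin 2 and the lowest tumor count without tumor 2. Over all probes the share called also fell, in papilloma without papilloma skin 2 and in tumor without tumor 2. It fell as well on the 6 arrays and with slide as a term on 7 columns. These falls are not particular to the 19 probes. The causes were not tested. Of the 9 arrays, 3 have a compressed signal, which limits what the scanner signals can show.

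The replicate number as a block gave 1, 1 and 2 calls in the same contrasts, beside 0.991%, 1.32% and 2.91% of all probes, and 0 in the other 3. Not every same-numbered pair had deviations correlated above 0.1, so the numbers were not taken as pairs: 3 of 12 did in the deposited table, where 0 of 9 arrays correlated best with their own number, and 6 of 12 did in the scanner signals (0.65 to 0.71). All arrays numbered 1 share slide 1, so number and slide are partly the same, and in groups of 2 the deviations of both numbers mirror each other.

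Differences that turned direction were all uncalled. After the 75th percentile, without and with ComBat, the papilloma values became 0.34 and 0.37 (Selplg A_55_P1976212), 0.40 and 0.32 (Selplg A_51_P131358), 0.69 and 0.61 (Cd44 A_55_P2166488), 0.15 and 0.017 (Cd44 A_55_P2166486), 0.45 and 0.42 (Cd44 A_55_P2064043), 0.67 and 0.56 (Itgam A_55_P1977934), 0.36 and 0.38 (Itgal A_55_P2184601), 0.80 and 0.76 (Itgal A_51_P466378) and 0.81 and 0.78 (Itgb2), Cd44 A_55_P2166501 in tumor became -0.16 and -0.49, and Itgb2 over all lesions became 0.0059 without ComBat. After quantile normalization with ComBat, without slide handling and with slide as a term, papilloma gave 0.088, 0.12 and 0.065 for Cd44 A_55_P2166488, 0.086, 0.051 and 0.071 for Itgal A_51_P466378 and 0.81, 0.75 and 0.79 for Itgal A_55_P2184606, and tumor gave 0.15, 0.20 and 0.12 for Cd44 A_55_P2166488. Cd44 A_55_P2166501 in tumor became -0.073 with ComBat and -0.11 with slide as a term. With normexp, Itgal A_55_P2184606 gave 0.21 in papilloma and Cd44 A_55_P2166488 gave 0.27 in tumor. On 6 arrays, papilloma gave -0.11 and -0.39 for Itgam A_55_P1977926 and A_55_P1977929 and -0.51 for Icam1, and tumor gave 0.025 for Cd44 A_55_P2166488 and 0.28 for Itgam A_55_P1977929. With 7 columns the same Itgam probes gave -0.098 and -0.0046 in papilloma, and with slide as a term as well A_55_P1977926 gave -0.071 and Cd44 A_55_P2166501 in tumor -0.11. With 1 array left out, papilloma ranged from -0.098 to 0.35 and from -0.0046 to 0.51 for these Itgam probes, from -0.75 to 0.19 for Itgal A_51_P466378 and from -0.0020 to 0.77 for Icam1, and tumor from -0.53 to 0.17 for Cd44 A_55_P2166488.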
